A study of Mus musculus with 4 samples.

Results

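Ribosomal protein genes were examined as genes that are active in nearly every growing cell and are not known as a class of TEAD targets. TEAD1 binds DNA and recruits YAP and TAZ, the coactivators held in check by Hippo signalling. The members were all protein-coding symbols that start with Rpl or Rps followed by a number, with Rplp0 to Rplp2 and Rpsa, and without the Rps6k kinases. This gave 91 of 21631 protein-coding genes on chromosomes 1 to 19 and X, the chromosomes that hold peaks. Of these 56 carry large-subunit symbols and 35 carry small-subunit symbols. Core ribosomal proteins made up 77 of them, and the other 14 were paralogs and retrogene copies such as Rpl3l, Rpl10l and Rps27l, and Rps19bp1, which encodes a binding partner of a ribosomal protein and is not a part of the ribosome.

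The study used cardiac fibroblasts of newborn mice, with 1 ChIP and 1 input library from cells with a TEAD1 overexpression construct (OE-TEAD1) and the same from cells with its negative control (OE-NC). The labels name no mouse strain, vector, time of harvest or antibody. The data are 2 lists of peaks called against input, 21285 peaks in list 1 and 21218 in list 2. Neither list is tied to OE-NC or OE-TEAD1 by the labels, so the conditions are not compared. Each list rests on 1 library per arm without replicates, and no test across genes was made. Fold over input and q are the authors' values for each peak. The fold was read as the ratio of the ChIP pileup to the local background at the summit, with 1 added to each. It is therefore lower than the plain ratio of the fragments and backgrounds given below. Intervals of a fold cover counting error of the ChIP fragments only, and Wilson intervals of a share cover only the number of genes or peaks counted. Coordinates are GRCm38.

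Ribosomal proteins bind the ribosomal RNAs to form the small subunit, which decodes messenger RNA, and the large subunit, which joins amino acids. Their genes are short, are transcribed at high rates from promoters rich in CG dinucleotides, and often carry small nucleolar RNAs in their introns. Their messenger RNAs begin with a tract of pyrimidines through which mTOR signalling controls their translation. No expression values were used here, so that these genes are active in the cells is background and not a measurement.

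Of the 70 members with an entry in the RefSeq promoter table (GRCm38.p6), 3 had a summit between 250 bases before and 50 after an annotated start, namely Rps26, Rps27 and Rpl11. Their promoters are printed because these are the only ones of the 70 in which a peak and the promoter letters can be read together. Each runs 5′ to 3′ on the minus strand from 250 bases before the start through the first 10 transcribed bases. Capitals mark matches on either strand to GGAATG (the core bound by TEAD factors), TGANTCA (AP-1), CCGGAAG (ETS factors), ATGGCG (the core bound by YY1) and CCGCCC (the GC box).
Rps26, chr10:128626497-128626756: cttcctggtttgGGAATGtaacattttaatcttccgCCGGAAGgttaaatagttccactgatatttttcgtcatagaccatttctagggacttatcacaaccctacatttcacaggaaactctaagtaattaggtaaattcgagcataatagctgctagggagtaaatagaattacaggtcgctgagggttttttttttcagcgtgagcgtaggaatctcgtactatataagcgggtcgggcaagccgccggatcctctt
Rps27, chr3:90213639-90213898: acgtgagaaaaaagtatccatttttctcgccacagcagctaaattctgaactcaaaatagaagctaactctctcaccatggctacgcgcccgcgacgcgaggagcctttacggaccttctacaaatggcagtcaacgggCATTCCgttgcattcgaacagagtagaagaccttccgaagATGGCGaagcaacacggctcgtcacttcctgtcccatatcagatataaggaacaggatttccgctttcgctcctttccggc
Rpl11, chr4:136053384-136053643: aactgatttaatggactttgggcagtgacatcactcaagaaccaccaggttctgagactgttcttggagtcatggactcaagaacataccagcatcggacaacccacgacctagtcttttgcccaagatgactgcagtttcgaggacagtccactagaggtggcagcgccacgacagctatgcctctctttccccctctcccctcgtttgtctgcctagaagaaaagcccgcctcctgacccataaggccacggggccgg
In the Rps26 promoter the TEAD core GGAATG lay 238 to 233 bases before the start, beside the summits, which lay 224 bases before it in list 1 and 231 in list 2. The gap between this match and the summit was 9 bases in list 1 and 2 bases in list 2. An ETS match, CCGGAAG, began 214 bases before the start. In the Rps27 promoter the reverse complement of the TEAD core, CATTCC, lay 111 to 106 bases before the start, 103 bases from the list 1 summit. The Rpl11 promoter held a summit 224 bases before the start in list 1 and none of the 5 motifs in the printed window. A match describes letters and is not evidence of binding.

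Across the promoters of the 70 members with an entry, the TEAD core was not common. It was found in 7 of 82 member promoters (8.54%), those of Rpl22, Rpl26, Rpl36al, Rps16, Rps24, Rps26 and Rps27, against 14.7% of all 32851 promoters of the same length and 13.5% of the 21045 that belong to protein-coding genes. AP-1 matches were found in 2 member promoters (2.44%) against 7.81% of all promoters and 7.04% of those of protein-coding genes. In the same order, ETS matches were found in 27 (32.9% against 8.86% and 11.7%), YY1 matches in 25 (30.5% against 8.93% and 10.96%) and GC boxes in 47 (57.3% against 35.7% and 46.7%). A run of at least 6 pyrimidines touching the 5 bases on either side of the start was present in 36 member promoters (43.9% against 21.0% and 21.1%). The median member promoter had 21 CG dinucleotides, against 7 over all promoters and 13 over those of protein-coding genes, and 57.8% GC against 52.7% and 56.7%. These shares describe letters, over promoters of which some belong to the same gene.

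Summits lay close to the ends of ribosomal protein genes more often than to those of other genes. Within 1 kb of either gene end, 13 of 91 members had a summit in list 1, or 14.3% (Wilson 95% interval 8.54 to 22.9), where 5.57% of all protein-coding genes had one. List 2 had 11 of 91, or 12.1% (6.89 to 20.4), where 5.23% of all protein-coding genes had one. Ribosomal protein genes are short, with a median span of 3.17 kb against 17.4 kb for other genes, so other genes were weighted to the span classes of the members. Other genes of like span had a summit within 1 kb in 4.70% of cases in list 1 and 4.61% in list 2. The member shares were 3.04 and 2.62 times these values, and both like-span shares lay below the member intervals. All 13 and all 11 of these genes were core ribosomal proteins, and the other 14 symbols had none within 1 kb in either list, which allows a share of up to 21.5% (upper Wilson bound). Since 9 genes had such a summit in both lists, the lists are not independent counts of genes.

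The ratio of the member share to that of like-span genes was lower in wider windows than within 1 kb, at 1.66 in list 1 and 1.24 in list 2 within 10 kb. Within 10 kb, 29 of 91 members had a summit in list 1 (31.9%, 23.2 to 42.0), where 27.1% of all protein-coding genes had one and 19.2% of other genes of like span. In list 2 there were 22 of 91 (24.2%, 16.5 to 33.9), where 26.6% of all genes and 19.6% of genes of like span had one, the latter inside the interval. Counted over base pairs, the first kilobase around the ends of members held 37.1 summits per Mb in list 1 and 34.2 in list 2, against 13.3 and 12.8 around other genes of like span. Between 2 and 5 kb the members had fewer than the other genes, 6.62 and 8.27 summits per Mb against 11.1 and 10.3. The member values there rest on 4 and 5 summits. Between 5 and 10 kb the members had 9.80 and 10.9 summits per Mb and the other genes 9.98 and 10.2. Within 50 kb, 68.1% of members had a summit in list 1 and 61.5% in list 2, against 48.6% and 49.5% of genes of like span and 57.5% and 58.2% of all other genes. These differences from genes of like span, 19.6 and 12.0 points, were larger in points than those within 1 kb and smaller as ratios (1.40 and 1.24). The lists differed from 1 to 2 kb, where 5 summits lay near members in list 1 and 1 in list 2. These gave 17.6 and 3.51 summits per Mb, against 11.8 and 12.4 around other genes of like span.

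**Figure D1:**
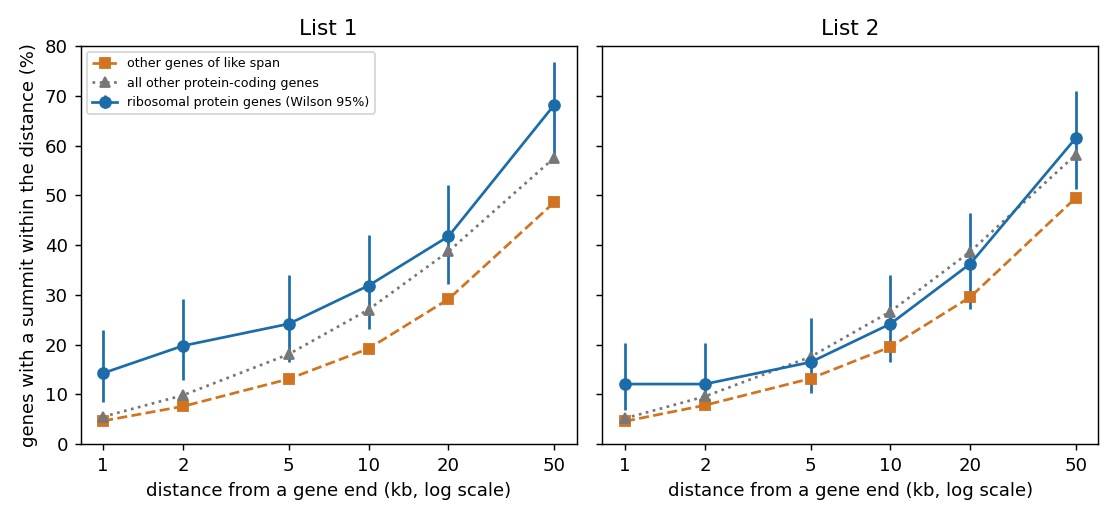
Share of genes with a summit within a given distance of either gene end (y axis, percent; x axis, kb on a log scale) in each peak list, for the 91 ribosomal protein genes with Wilson 95% intervals, for other genes weighted to the same spans and for all other protein-coding genes. At 1 kb the ribosomal protein genes stand at 14.3% and 12.1% against 4.70% and 4.61% for genes of like span, and in list 2 they meet the line of all other genes by 5 kb.

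**Figure D2:**
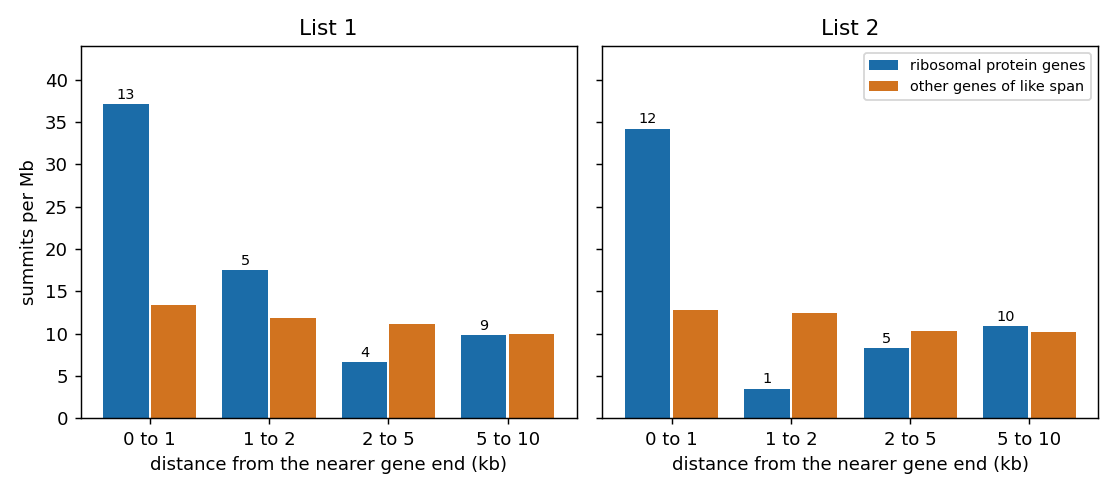
Summits per Mb (y axis) by distance from the nearer gene end in kb (x axis) for ribosomal protein genes and other genes of like span, with the number of summits over each bar of the former. The 13 and 12 summits within 1 kb give 37.1 and 34.2 per Mb, and the bars from 5 to 10 kb are near 10 per Mb for both kinds of genes.

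Few of these peaks were strong. The 13 list 1 peaks within 1 kb had folds from 3.62 to 12.8 with a median of 5.88, and the 12 list 2 peaks had folds from 3.48 to 14.2 with a median of 5.17. The median over all peaks was 6.24 in list 1 and 6.83 in list 2, and peaks within 1 kb of other protein-coding genes had medians of 5.88 and 6.36. Under the median of their list lay 7 of the 13 and 7 of the 12 peaks. Summits near members rested on a median of 17 ChIP fragments in list 1 and 18.5 in list 2. Only Rps26 had a peak of 10-fold or more within 1 kb in either list, 1 of 91 members (1.099%), where 0.98% of all protein-coding genes in list 1 and 1.14% in list 2 had such a summit. Other genes of like span had one in 0.874% and 0.929% of cases. At a fold of at least 5, 8 members in each list (8.79%) had a summit within 1 kb, against 3.30% and 3.21% of genes of like span. At a fold of at least 6 the members stood at 6.59% and 5.49%, against 2.49% and 2.53% of genes of like span. At 7-fold they were at 2.20% (2 members) and 4.40% (4 members), against 1.74% and 1.92%. At a fold of at least 8, it was again 1 member in each list (1.099%, Wilson interval 0.194 to 5.96). Genes of like span stood at 1.49% and 1.48%, inside this wide interval. Among the 5000 peaks of highest −log10 q per list, Rps26 was again the only member within 1 kb, where 0.952% of all protein-coding genes had a summit in each list. Within 10 kb the same peaks reached 3 members in list 1 and 4 in list 2, where 7.23% and 7.14% of all genes had one. The higher share of members within 1 kb thus came from peaks under 8-fold over input, a range that holds the median fold of each list.

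**Figure D3:**
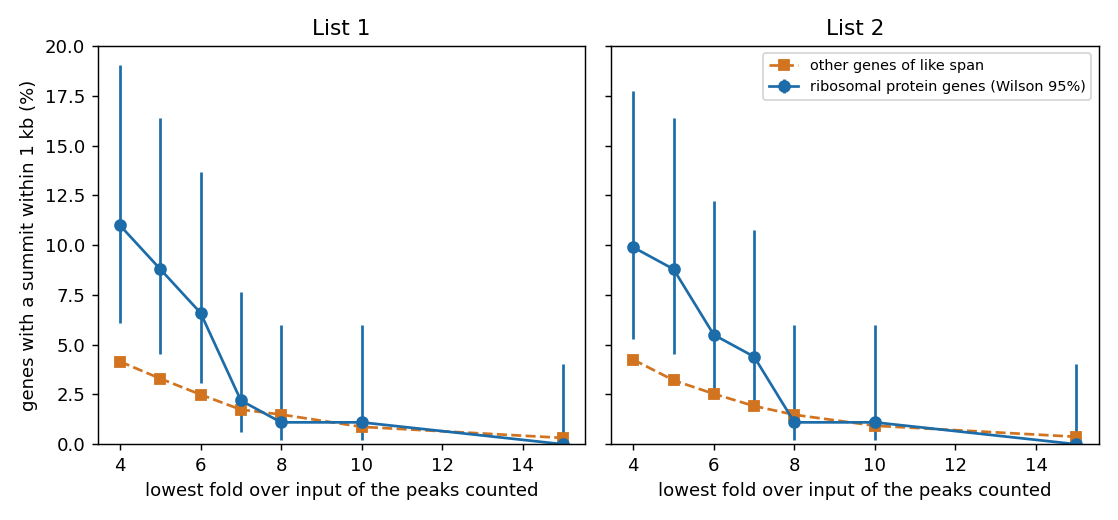
Share of genes with a summit within 1 kb of a gene end (y axis, percent) when only peaks of at least a given fold over input are counted (x axis), for ribosomal protein genes with Wilson 95% intervals and other genes of like span. The ribosomal protein genes start near 10% at 4-fold and fall to 1.099% at 8-fold, where other genes of like span stand at 1.49% in list 1 and 1.48% in list 2.

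Within 10 kb strong peaks near members were also few, but at lower folds the lists differed. At a fold of at least 5 the members stood at 16.5% and 19.8%, against 14.6% and 15.2% of genes of like span. At 7-fold they were at 5.49% and 10.99%, against 9.11% and 9.86%. Peaks of 10-fold or more lay near 3 members in list 1 (3.30%) and 5 in list 2 (5.49%), where 7.23% and 8.54% of all protein-coding genes and 4.97% and 5.69% of genes of like span had one. Among the 31 list 1 peaks within 10 kb of a member, 21 had a fold under the list's median, as did 16 of 28 in list 2. The local background behind the peaks within 1 kb had a median of 2.07 fragments in list 1 and 1.92 in list 2, against 1.83 and 2.03 at peaks near other genes. Within 1 kb, backgrounds above 3 fragments were seen at Rps12 (3.11) and Rpl3 (3.63) in list 1 and at Rps20 (4.47) in list 2. The part of the local background in the result was not tested.

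Among genes of the small subunit, Rps26 stood out by the strength of its peak. It encodes a protein at the exit of the messenger RNA channel. Its peak had a fold of 12.8 in list 1 (95% interval 9.13 to 17.5, 37 fragments) and 14.2-fold in list 2 (10.3 to 19.02, 42 fragments), at chr10:128626503-128627084 and chr10:128626516-128627071. Both intervals lay above the median fold of their list. Rps15a, a small-subunit protein gene, had a peak inside the gene 508 and 490 bases before its last base, 7.71-fold in list 1 and 7.68-fold in list 2. Rps19, the gene most often mutated in Diamond-Blackfan anaemia, had folds of 6.46 and 6.98 at a site 864 and 842 bases past its last base. Rps20 had folds of 5.86 and 3.48 at a site inside the gene, where 17 and 18 fragments stood over 2.07 and 4.47 in the local background. The similar fragment numbers at Rps20 thus gave different folds over different backgrounds.

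The other 3 small-subunit genes had a summit within 1 kb in list 1 alone. Rps27 had a 6.81-fold peak 214 bases before its start, inside the span of the neighbouring gene Rab13. In list 2 its only summit within 10 kb lay 8.81 kb away, inside Nup210l, and was 11.9-fold. Rps6, whose protein is the classic substrate of the S6 kinases, had a 4.45-fold peak 322 bases past its last base, and Rps12 a 3.65-fold peak 402 bases before its start. These peaks rested on 19, 15 and 14 fragments, and with so few fragments the absence of a call in the other list is not a measured difference.

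Large-subunit genes with a summit within 1 kb in both lists were Rpl35, Rpl24, Rpl3, Rpl12 and Rpl10. Rpl35, encoding a protein near the exit of the peptide tunnel, had folds of 6.83 and 7.33 at a site 771 and 776 bases before its start, both on 20 fragments. Rpl24 had folds of 6.98 and 5.14 at a site 902 and 985 bases past its last base, inside the span of Zbtb11, a zinc finger gene. Rpl12, a protein at the base of the ribosomal stalk, had folds of 3.62 and 5.21 at a site inside the gene 305 and 252 bases before its last base. Rpl10, which is needed for the subunits to join, had the fewest fragments (10 in either list) with folds of 4.04 and 3.84. Apart from Rps26, every one of these values had a counting interval that reached below the median fold of its list, as the plot of folds by gene shows.

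Rpl3, encoding a protein near the peptidyl transferase centre, had the most summits within 10 kb of any member in one list. List 2 had 4 summits at this gene, 2 of them within 1 kb of an end, with folds of 7.82 (26 fragments) at the site 791 bases from an end, 5.24, 4.08 and 4.68. List 1 had 1 summit there, at the first of these sites, 3.67-fold with 16 fragments over a local background of 3.63, against 2.45 in list 2. Of the 4 list 2 summits, 3 lay inside the gene. The Rpl3 span contains 3 small nucleolar RNA genes.

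The remaining large-subunit genes within 1 kb were found in one list. Rpl11, whose protein also binds and restrains Mdm2, had a 5.88-fold peak in list 1 with 15 fragments. In list 2 Rpl23 had a 5.14-fold peak 528 bases past its last base (14 fragments), and Rpl23a, whose protein sits beside the tunnel exit, a 4.88-fold peak 129 bases from an end (13 fragments). A list 1 summit of Rpl23a lay 5.90 kb away inside Nek8 and was 3.88-fold.

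**Figure D4:**
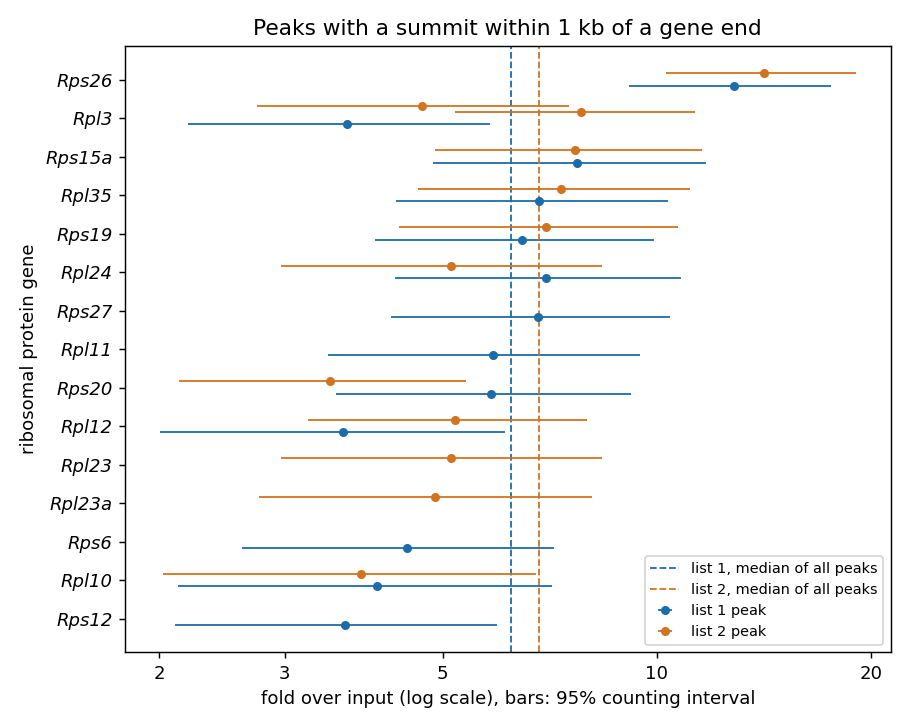
Fold over input (x axis, log scale) of every peak with a summit within 1 kb of an end of a ribosomal protein gene (y axis), with 95% counting intervals and dashed lines at the median fold of all peaks of each list. Rps26 is the only gene whose intervals lie wholly above the dashed lines, at 12.8-fold and 14.2-fold.

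The limit of 1 kb fell within a run of sites and not in a gap. The outermost sites inside it were those of Rpl24 at 985 bases and Rps20 at 912 bases, both in list 2. The nearest outside it were in list 1, where Rpl35a had a 4.41-fold summit at 1.08 kb inside Iqcg, Rpl30 a 6.61-fold summit at 1.25 kb inside the gene, Rplp1 a 4.52-fold summit at 1.29 kb and Rpl4 a 5.88-fold summit at 1.45 kb inside the gene. None of these 4 sites was called in list 2.

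The peaks within 1 kb that could be placed lay near gene starts and near last bases. The counts by position are small and have no share of other genes beside them. The gene's strand was known for 11 of 13 sites in list 1 and 8 of 12 in list 2. In list 1, 6 summits lay upstream of the start, 2 inside the gene and 3 past its last base. In list 2, 3 lay upstream, 2 inside and 3 downstream. Measured to the nearer end, 6 of 11 in list 1 and 3 of 8 in list 2 were closer to the start. A summit inside the span was found for 6 members in list 1 (6.59%) and 4 in list 2 (4.40%), where 20.7% and 20.8% of all protein-coding genes, which are longer, had one. Of the 30 members that hold a small nucleolar RNA gene, 5 had a summit this close in list 1 and 6 in list 2 (16.7% and 20%, against 5.09% and 4.93% of genes of like span). Of the 61 without one, 8 and 5 did (13.1% and 8.20%, against 4.60% and 4.53%).

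Peaks of at least 10-fold within 10 kb of a member were few, 3 in list 1 and 5 in list 2, and the member was the nearest gene for 1 and 2 of these. Among peaks above the median fold of their list it was the nearest for 6 of 10 and 6 of 12. Rpl7 had the strongest peak, 25.3-fold in list 1 (19.8 to 32.0) and 20.1-fold in list 2 (15.7 to 25.4) with 68 fragments in each, at a site 5.11 and 5.09 kb from its end and inside Rdh10, a retinol dehydrogenase gene. Rps19bp1 had 2 sites in each list, with folds of 5.51 and 8.66 at one and 4.09 and 4.55 at the other, and both were nearest to Atf4, the stress response factor gene. Rpl26 was itself the nearest gene to a site 2.07 kb past its last base. That site was 9.19-fold in list 1 (6.37 to 12.9, 32 fragments) and 18.1-fold in list 2 (13.6 to 23.7, 51 fragments), the one shared site of members whose counting intervals did not overlap. These intervals leave out the error of the input and the spread between cultures, so the gap at Rpl26 cannot be set against replicate error. Over all peaks within 10 kb the member was the nearest gene for 18 of 31 in list 1 and 17 of 28 in list 2, and within 1 kb for 11 of 13 and 11 of 12. The exceptions within 1 kb were the Rps27 and Rpl24 sites.

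Ribosomal protein genes lie close to other genes. The number of other protein-coding genes within 10 kb averaged 1.57 for members and 1.09 for other genes, and 10.99% of members had none against 37.5% of other genes. Weighting other genes to both span and number of neighbours raised their share within 1 kb to 5.13% in list 1 and 5.03% in list 2, and within 10 kb to 21.1% and 21.2%. Within 50 kb it raised their share to 53.3% and 53.9%. The list 1 value lay below the member interval (58.0 to 76.8) and the list 2 value inside it (51.3 to 70.9).

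The lists were then compared at these genes. Peaks near members within 10 kb overlapped a peak of the other list by at least 1 bp in 15 of 31 cases in list 1, or 48.4% (Wilson interval 32.0 to 65.2), and in 15 of 28 in list 2, or 53.6% (35.8 to 70.5). Over all peaks the shares were 70.9% and 71.4%. Weighted to the strength deciles of the members' peaks they were 60.7% and 66.1%, both inside the intervals. Within 1 kb, 9 of 13 and 9 of 12 peaks were shared, or 69.2% (42.4 to 87.3) and 75% (46.8 to 91.1). Of peaks within 1 kb of other genes 65.4% and 68.7% were shared, both inside these intervals. At the 15 shared sites the fold was higher in list 2 at 10 and in list 1 at 5, with a median log2 ratio of list 2 over list 1 of 0.11 (range -0.75 to 1.09). The counting intervals of the lists overlapped at 14 of the 15 sites. The shared summits were a median of 21 bases apart.

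Members found within 10 kb in one list only had peaks under 7-fold. In list 1 these were Rpl11, Rpl28, Rpl30, Rpl37, Rpl4, Rpl41, Rplp1, Rps12, Rps23, Rps27l, Rps6 and Rps9. The values not yet given were 4.77-fold at Rpl28, 4.90-fold at Rpl37, 4.90-fold at Rpl41, 4.04-fold at Rps23, 4.04-fold at Rps27l and 5.14-fold at Rps9. In list 2 they were Rpl23, Rpl27 (3.83-fold), Rpl29 (5.58-fold), Rpl8 (5.21-fold) and Rps21, with 2 summits of 5.23-fold and 6.60-fold. Rpl35a and Rps16 had a summit in each list at different sites. At Rpl35a these were 4.41-fold in list 1 and 8.03-fold in list 2, and at Rps16 4.77-fold and 6.99-fold. No summit within 10 kb was found in either list for 57 members, or 62.6%, against 67.4% of other protein-coding genes. Of the 34 members with a summit in either list, 50% had one in both, against 64.5% of such other genes. Among the 57 were the stalk genes Rplp0 and Rplp2, Rpsa, Rpl5, Rps3, Rps4x, Rps14, Rps27a and most of the 14 symbols outside the core, such as Rpl3l, Rpl10l, Rpl22l1 and Rpl39l.

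Ribosomal protein genes have many processed copies, and reads from an exon can match such a copy as well as the gene. The sources used here do not say how reads with several matches were treated. Of 309 ribosomal protein pseudogenes 6 had a summit within 1 kb in each list, or 1.94% (Wilson interval 0.893 to 4.17), against 1.53% and 1.68% of other pseudogenes. In each list 1 of the 309 held a summit inside its span (0.324%, against 0.868% and 0.948% of other pseudogenes). The ribosomal protein pseudogenes are shorter, with a median span of 0.527 kb against 0.943 kb, and these shares were not weighted for span. The part of multiple matches in the peaks at the members themselves was not tested.

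Shares varied among genes of related processes, with no test between lists. Among 42 translation factors and related genes, those with a summit within 1 kb numbered 1 in list 1 and 3 in list 2 (2.38% and 7.14%, against 6.02% and 5.63% of genes of like span). Within 10 kb there were 11 and 16 (26.2% and 38.1%, against 27.5% and 27.2% of genes of like span). The strongest peaks there were at Eif4b, an initiation factor gene (28.6-fold and 24.99-fold), Eif2s2 (15.1-fold and 18.8-fold) and Tpt1 (8.74-fold and 13.9-fold). Ribosome assembly genes had 4 and 3 of 40 within 1 kb (10% and 7.5%, against 6.02% and 5.59%), and Nop14 (18.7-fold and 23.0-fold), Nop58 (12.9-fold and 16.1-fold) and Bop1 (11.6-fold and 12.8-fold) had the strongest peaks within 10 kb. Mitochondrial ribosomal proteins had 5 of 78 in each list (6.41%, against 5.61% and 5.27%), with Mrpl33 (39.7-fold and 47.5-fold), Mrpl52 (23.5-fold and 31.4-fold) and Mrpl22 (27.9-fold and 29.3-fold) strongest within 10 kb.

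Other genes of general use were split. Proteasome subunits reached 6 of 40 within 1 kb in list 1 and 5 of 40 in list 2 (15% and 12.5%, against 6.00% and 5.58% of genes of like span), shares close to those of the ribosomal protein genes, and Psmc3 (35.6-fold and 28.0-fold), Psmc5 (16.1-fold and 24.8-fold) and Psmd7 (14.3-fold and 5.47-fold) led them within 10 kb. Respiratory chain genes had 4 and 3 of 92 (4.35% and 3.26%, against 5.42% and 5.18%), with Atp5g2 (24.8-fold and 30.04-fold), Atp5l (12.9-fold and 12.0-fold) and Ndufb6 (11.02-fold and 9.77-fold) strongest.

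Lists tied to TEAD or to fibroblast function had higher shares of genes with a summit. YAP/TEAD targets, 22 in all, had such a close summit in 8 cases in list 1 and 10 in list 2 (36.4% and 45.5%, against 5.37% and 5.17% of genes of like span), and 3 and 4 of these genes had one of at least 10-fold, against 1 of 91 ribosomal protein genes in each list. Within 10 kb a peak of at least 10-fold was found for 11 and 13 of the 22 (like-span shares 7.71% and 9.02%), led by Nt5e (41.9-fold and 48.5-fold), Ccn2 (24.9-fold and 42.2-fold) and Ankrd1 (35.0-fold and 20.2-fold), against 3 and 5 of 91. The strongest Ccn2 peaks were at different sites, 5.99 kb from a gene end in list 1 and 0.075 kb in list 2. Actin and adhesion genes had 6 and 4 of 26 within 1 kb (23.1% and 15.4%, against 5.93% and 5.56%) and 8 and 6 of 26 with at least 10-fold within 10 kb (like-span shares 7.79% and 9.24%), among them Cald1 (29.0-fold and 26.0-fold) and Tln1 (22.2-fold and 30.01-fold). Matrix genes were listed as highly expressed in fibroblasts, which was not measured here. They had 6 and 7 of 20 within 1 kb (30% and 35%, against 6.11% and 5.76%), but 1 and 0 of 20 with at least 10-fold there. Within 10 kb 10 of 20 in each list had such a peak (like-span shares 8.56% and 10.1%), with Timp2 (23.9-fold and 29.7-fold), Thbs1 (16.5-fold and 26.9-fold) and Col5a1 (18.0-fold and 24.6-fold) first. These lists were chosen with earlier results of these data known, and their difference from the ribosomal protein genes was not tested.

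**Figure D5:**
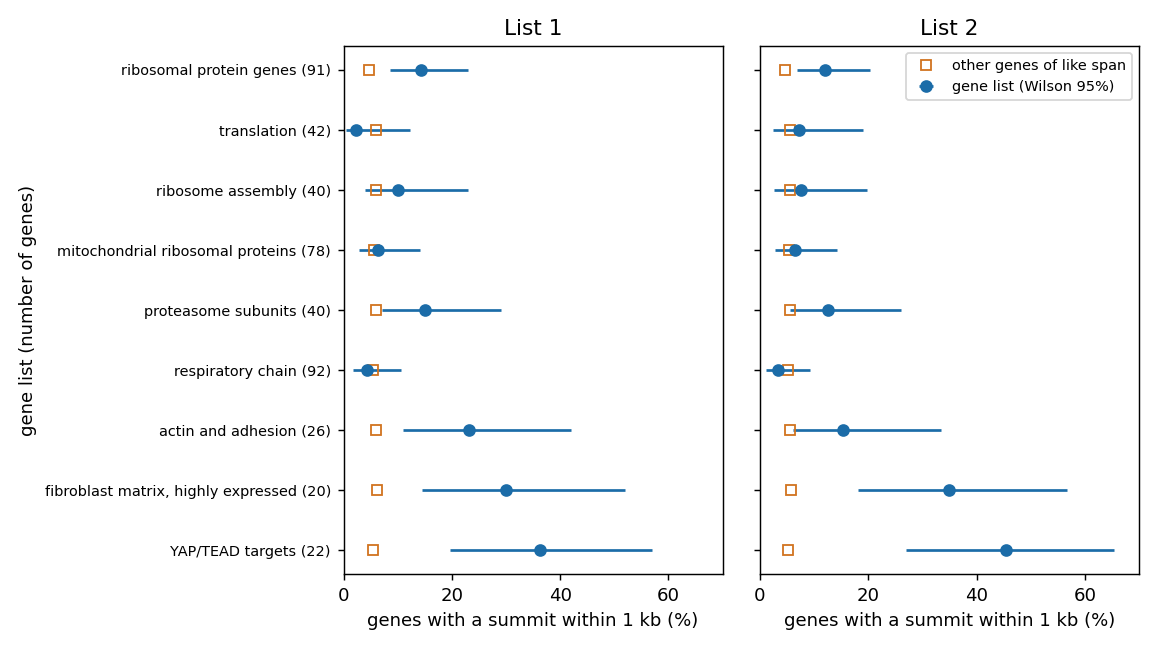
Share of genes with a summit within 1 kb of a gene end (x axis, percent) for 9 gene lists (y axis, number of genes in brackets) with Wilson 95% intervals, and the share of other genes of like span as open squares. Ribosomal protein genes (14.3% and 12.1%) stand with the proteasome subunits (15% and 12.5%), above the respiratory chain (4.35% and 3.26%) and below the YAP/TEAD targets (36.4% and 45.5%).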

How the data were processed

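ChIP-seq peaks were taken from 2 deposited lists, each called against input. Per the submitters' processing notes, the tools were Trimmomatic 0.33 for trimming, Bowtie 1.1.2 for alignment and MACS2 for peaks. For MACS2 the sources used here give no version or settings, and none mentions duplicate reads. For each peak the authors deposited a start, an end, a summit, a score, a fold over input (a ratio), and −log10 p and −log10 q. The score was not used. The ChIP fragment number and local background were solved from the deposited fold and p, as whole numbers within 0.02 for 99.99% of peaks, with exact Poisson 95% intervals. The lowest summit held 8 fragments. Library sizes are not in the lists, so depth is known only at peaks.

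The notes name the build mm39. Coordinates were read as GRCm38: summits within 1 kb of a GRCm38.p6 gene end numbered 1129 and 1072, and after shifts of 25, 50 or 100 kb either way 863 to 931 and 829 to 972. Distances run to either end of the RefSeq gene span, since the gene table holds no strand. Starts and strands came from the promoter table, which has no entry for 21 members.

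Like-span shares weighted other genes by span classes that double from 1 kb. The genes named were members with a summit within 1 kb, those above the median q rank of a list, those in 1 list only, the one with most summits, and the 3 strongest of each other list. Members and lists were chosen with earlier results of these data known. Some genes are counted in the totals but not reported here by name. Counting steps were tested on simulated data. Python 3.11.15, pandas 2.3.3 and SciPy 1.17.1 were used. Alternatives covered peak strength, windows, members and the definition of like span.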

Additional observations from a re-analysis of the deposited data

How the results depend on the processing

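The higher share of ribosomal protein genes close to their ends rested on peaks under 8-fold. With the 5000 peaks of highest −log10 q, or with peaks of at least 10-fold, the share within 1 kb was 1.099% in each list, and within 10 kb it was 3.30% under both settings in list 1 and 4.40% and 5.49% in list 2. The difference from other genes of like span, 9.59 percentage points in list 1 and 7.48 in list 2 within 1 kb, came to 0.319 and 0.309 with the 5000 peaks and to 0.225 and 0.170 at 10-fold. Within 10 kb it was 12.7 and 4.62 points and turned to -1.65 and -0.56 with the 5000 peaks and to -1.67 and -0.20 at 10-fold. Set against all other protein-coding genes, the list 2 difference within 10 kb was -2.48 points. The window changed the share itself: 68.1% and 61.5% of members had a summit within 50 kb (48.6% and 49.5% of genes of like span), and 16.5% within 5 kb in list 2 (13.2%). Of the peaks near members that were among the 5000, 100% were shared in each list. These were only 3 of 3 peaks in list 1 and 4 of 4 in list 2. The shared part of all 5000 peaks is not given here, so the 100% is not shown to be particular to members. In these settings fewer peaks, other windows or other genes were counted. The other 34 values stayed within their intervals, among them those for core members alone and for the other definitions of like span. No paired analysis was possible because each group held 1 library and neither list is tied to a group. A single library behind each list leaves the spread between cultures unknown.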
